A study of Mus musculus with 8 samples.

Results

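The genes described here encode the proteins of the cytosolic ribosome in mouse embryonic epidermis. They were chosen by name: every gene symbol made of Rpl or Rps and a number, with the optional endings a, a1 or x, together with Rplp0, Rplp1, Rplp2 and Rpsa. This gave 77 of 23146 genes, 46 of the large subunit and 31 of the small subunit, and all 77 had enough counts to be tested. The rule reads the symbol alone and no expression value.

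The study compared RNA from embryonic epidermis in 8 libraries, 2 from each of 4 groups. Knockout embryos, at the embryonic days E15.5 and E17.5, carried floxed Nir alleles and Krt14-Cre, in which the promoter of the basal keratinocyte keratin Krt14 drives Cre recombinase. Control embryos of the same ages had floxed Nir alleles, so all 4 groups share that allele, and the epidermis was freed from dermis before RNA was taken with Trizol. Nir is the gene Noc2l, whose protein inhibits histone acetylation and p53 activity. This Cre acts in keratinocytes, so other cell types in a preparation are not its target.

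A ribosome is built from ribosomal RNA and about equal numbers of its proteins, whose genes are transcribed at high levels in growing cells. The mRNAs of most of these genes begin with a C followed by a run of pyrimidines, the terminal oligopyrimidine (TOP) motif, through which mTOR signalling controls their translation. Most mammalian ribosomal protein genes have many processed pseudogenes, intron-free copies elsewhere in the genome. In mice, reduced dosage of several of these genes raises p53 and changes skin pigment.

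The set of sequence windows around RefSeq start sites on GRCm38.p6 that was used here held 57 of the 77 genes. The others have RefSeq positions too but no window in this set, so a gene with a start below means a gene with a window. A C at the start followed by at least 4 pyrimidines was found in 13 of the 57 (22.8%), against 3.0% of 27025 genes with a start. The 6 of the 13 whose mRNA fell in knockout epidermis at 1 stage or more were picked with their values in view and are shown because they carry the motif and the change together. Each line holds 30 bases, 15 before the start and 15 from it, on the strand of the gene, with the pyrimidine run from the start in capitals. Rpl14 lies on the plus strand at chr9:120571502-120571531 and Rpl15 on the minus strand at chr14:18270972-18271001. Rpl28 lies on the plus strand at chr7:4792950-4792979 and Rplp2 on the plus strand at chr7:141447636-141447665. Rps6 lies on the minus strand at chr4:86857353-86857382 and Rps18 on the minus strand at chr17:33955651-33955680. Rpl11 fell without such a run at its RefSeq start, on the minus strand at chr4:136053379-136053408, and is shown for contrast in that annotated start only. The calls of Rpl14 (-0.33 ± 0.12, adjusted p = 0.042, at E15.5 and -0.31 ± 0.12, adjusted p = 0.0457 at E17.5) and Rps18 (-0.76 ± 0.28, adjusted p = 0.04 at E17.5) did not hold when single libraries were left out: without control replicate 2 of the stage they were -0.16 (adjusted p = 0.35), -0.20 (0.26) and -0.51 (0.23). With all libraries kept, Rpl14 also failed under upper-quartile scaling at both stages (adjusted p = 0.13 and 0.082) and at E17.5 under DESeq2 (0.054), RLE scaling (0.0507) and summed transcripts (0.0502). Rps18 failed under DESeq2 (0.14) and upper-quartile scaling (0.0511).
Rpl14: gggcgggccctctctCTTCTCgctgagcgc
Rpl15: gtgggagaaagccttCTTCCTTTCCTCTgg
Rpl28: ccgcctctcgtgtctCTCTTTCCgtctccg
Rplp2: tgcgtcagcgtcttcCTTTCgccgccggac
Rps6: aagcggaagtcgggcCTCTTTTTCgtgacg
Rps18: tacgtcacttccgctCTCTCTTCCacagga
Rpl11: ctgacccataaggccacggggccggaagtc
In the 300 bases around the start (250 before and 50 after), the ETS core CCGGAA on either strand was found in 56.1% of the 57 members and in 16.7% of all genes with a start. The SP1 core GGGCGG was found in 61.4% against 38.2%, the E-box CACGTG in 10.5% against 8.1% and TATAAA in 10.5% against 15.7%. A match to such letters is a description of the sequence only. Of the 13 members with the C and pyrimidine start, 5 fell at E15.5 and 6 at E17.5, with median log2 fold changes of -0.45 and -0.50. Of the 44 others with a window, 21 and 26 fell, with medians of -0.47 and -0.53. The medians thus lay within 0.05 of each other at each stage. A run of at least 8 pyrimidines within 20 bases of the start was found in 29 of the 57 members (50.9%). Over all genes with a start it was found in 18.8%. The split goes by the annotated start alone, so it does not separate genes with and without a TOP motif.

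Gene counts summed to between 25223874 and 28892685 per library, and 17827 to 18085 genes were detected in each. Levels below are CPM, a gene's counts as a share of a library total that was scaled with edgeR's TMM method. The Pearson correlation of the 2 replicates in a group was 0.986 to 0.989 across genes, and no pair matched within counting noise (chi-square over degrees of freedom 16.4 to 35.1). The targeted gene Noc2l measured 107 and 97.4 CPM in E15.5 controls, 95.7 and 91.6 CPM in E15.5 knockouts, 105 and 121 CPM in E17.5 controls and 85.4 and 86.9 CPM in E17.5 knockouts. It fell at E17.5 (-0.39 ± 0.10, edgeR, adjusted p = 0.0062) and did not pass at E15.5 (-0.12 ± 0.10, adjusted p = 0.34). The position of the loxP sites is not given, so counts over the whole transcript may hold exons that were not deleted, and they do not check the genotype labels. The label epidermis was checked against 8 basal keratinocyte markers, among them Krt5 and Krt14, which were present in every library. Their summed level was 7033 to 7492 CPM in E15.5 controls against 1966 to 2039 CPM in E15.5 knockouts, and 7600 to 7632 CPM against 1140 to 1181 CPM at E17.5. The 8 suprabasal keratinocyte markers summed to values from 87885 to 93023 CPM in E15.5 controls against 6165 to 6431 CPM in knockouts, and from 43056 to 56430 CPM against 1176 to 1345 CPM at E17.5, and all 8 fell at both stages. The 8 dermal fibroblast markers summed to 29774 to 31736 CPM in E15.5 controls and 73952 to 91325 CPM in knockouts, and to 25918 to 29996 CPM and 93535 to 99233 CPM at E17.5. None of the 8 was at 0 in any group, and all 8 rose at both stages (edgeR). The 6 erythroid markers, none at 0 either, summed to 3075 to 4194 CPM in E15.5 controls and 17786 to 31078 CPM in knockouts, and to 1169 to 1278 CPM and 13243 to 14907 CPM at E17.5. The 4 endothelial markers and the 3 myeloid markers tested all rose at both stages, to 592 to 621 CPM from 328 to 362 CPM and to 190 to 351 CPM from 75.7 to 93.4 CPM over both stages. Summed levels of 4 cycling-cell genes were 903 to 964 CPM against 727 to 798 CPM at E15.5 and 979 to 1084 CPM against 565 to 654 CPM at E17.5. These values move with every knockout comparison below. Their part in the results was not tested, and in bulk RNA a smaller number of cells of 1 type and less RNA per cell cannot be told apart.

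Ribosomal protein mRNA was lower in knockout epidermis at both stages, and the subunits moved by like amounts. In E15.5 controls the 77 genes together reached 15567 CPM in replicate 1 and 18032 CPM in replicate 2. In E15.5 knockouts they reached 12991 CPM in replicate 1 and 12206 CPM in replicate 2. At E17.5 the sums were 16483 CPM and 17876 CPM in the controls and 11800 CPM and 13119 CPM in the knockouts. All 4 knockout libraries were below all 4 control libraries. The group means gave a ratio of knockout to control of 0.75 at E15.5 and 0.725 at E17.5.

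For the large subunit the ratio of knockout to control in summed CPM was 0.736 at E15.5 and 0.715 at E17.5, and for the small subunit it was 0.77 and 0.74. Large subunit counts divided by small subunit counts came to 1.415 and 1.444 in E15.5 controls, 1.44 and 1.297 in E15.5 knockouts, 1.412 and 1.424 in E17.5 controls and 1.32 and 1.416 in E17.5 knockouts. The knockout ranges overlapped the control ranges at both stages, and the lowest ratio of each stage was in a knockout library. As a share of all gene counts, which uses no TMM scaling, the 77 genes held 1.521% and 1.738% in E15.5 controls against 1.219% and 1.229% in knockouts. At E17.5 they held 1.803% and 2.004% in controls against 1.118% and 1.266% in knockouts, a ratio of 0.626.

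**Figure D1:**
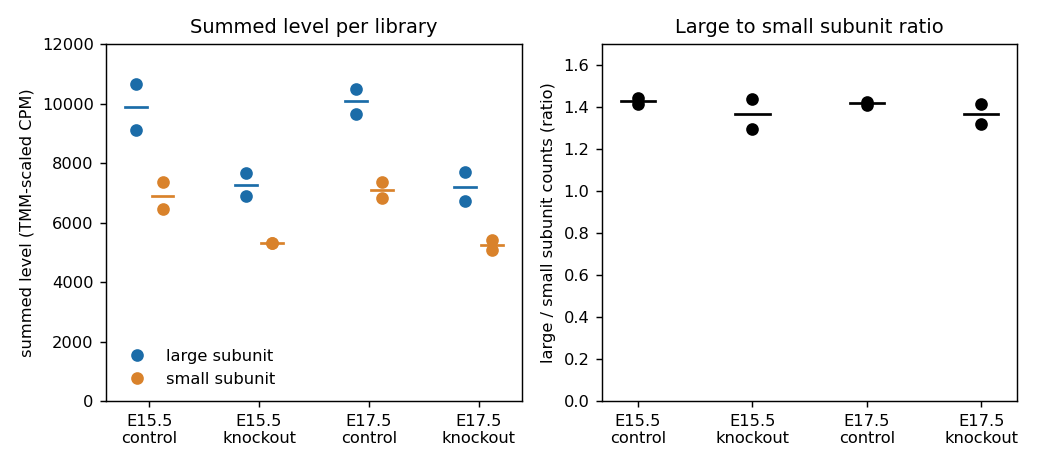
Left, summed TMM-scaled CPM of the 46 large subunit and 31 small subunit genes in each library by group, with points for libraries and short lines for means; right, the ratio of large to small subunit counts. Both sums are lower in the knockout libraries, at 6715 to 7690 CPM for the large subunit against 9120 to 10654 CPM in controls, and the ratio stays between 1.297 and 1.444.

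A few genes dominated these sums. The 10 most abundant members held 59.1% of all member counts and the 38 least abundant held 5.22%. Mean levels over the 8 libraries ran from 1.88 CPM for Rpl36a to 1276 CPM for Rpl4, a 679-fold range, with 16 members under 10 CPM and 11 at or above 500 CPM. Proteins made in nearly equal numbers per ribosome were therefore represented by very unequal counts, also per coding length. Per kilobase of coding sequence, the level was 4.89 CPM for Rps13 and 5.85 CPM for Rpl36a, but 1012 CPM for Rpl4 and 15537 CPM for Rpl41. Counts are per transcript, so this measure sets any reads outside the coding part against the coding length alone. For Rpl41, whose coding sequence has only 78 of the 437 bases of its transcript, it can therefore be much too high.

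The level per coding length went with the share of a gene's coding sequence that is found nowhere else. Each coding sequence was divided into all overlapping stretches of 50 bases, and a stretch was called unique when no transcript of another gene in GENCODE M21 held it. The median member had 8.0% unique stretches, and 76 of 77 members shared at least 1 stretch, over the whole transcript, with an annotated pseudogene (median 8 pseudogenes, up to 119 for Rpl7a). The 27 members with no unique coding stretch had a median of 41.3 CPM per coding kilobase, the 39 with some but under 50% had 145, and the 10 with at least 50% had 1150. Across 76 members with a coding length, log2 CPM per coding kilobase and the unique share correlated with a Spearman's rho of 0.65 and a Pearson's r of 0.60, a description across genes that share all 8 libraries. How reads that match several places were counted is not given in the sources used here, so its part in these levels was not tested. The knockout fold change was less tied to the unique share, with rho of 0.08 at E15.5 and 0.20 at E17.5. The 10 members with at least 50% unique coding stretches, grouped with their values in view, include Rpl4, Rpl8, Rpl22 and Rps3. Of them 6 fell at E15.5 and 7 at E17.5, with median log2 fold changes of -0.46 and -0.49, close to the medians of all members.

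**Figure D2:**
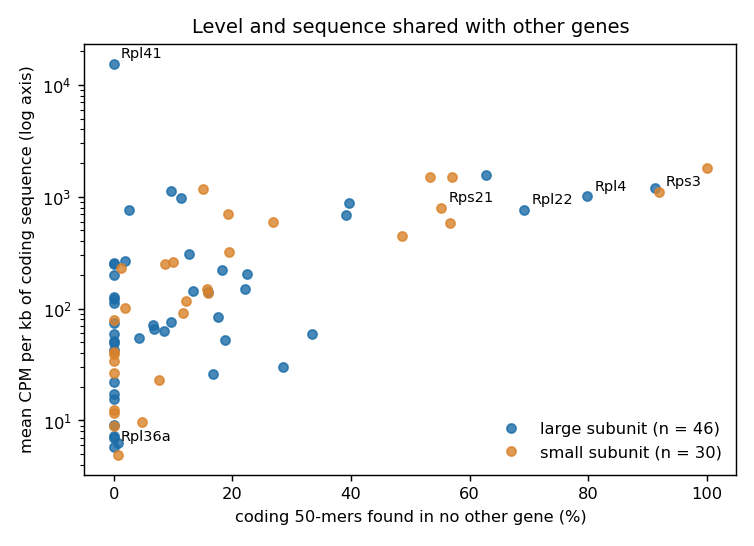
Mean CPM per kilobase of coding sequence (log axis) against the percentage of coding 50-base stretches found in no other gene, 1 point per member with a coding length (46 large, 30 small subunit). Members with no unique stretch spread from 5.85 to 15537 CPM per kilobase, while the 10 with at least 50% all lie at or above 585.

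At E15.5, 34 of the 77 members fell in the knockout and 0 rose (edgeR quasi-likelihood test, Benjamini-Hochberg adjusted p below 0.05 over 16341 genes). Over all genes tested, 22.3% fell and 23.2% rose (45.5% in all). The share of members that fell was 44.2%, with 22 of 46 large subunit genes (47.8%) and 12 of 31 small subunit genes (38.7%). The fold change was below 0 for 72 of 77. Its median was -0.46 on the log2 scale (-0.44 for the large and -0.47 for the small subunit), with an interquartile range of -0.55 to -0.24, against -0.005 over all genes. Both knockout libraries were below both control libraries for 50 members and above them for 0, where 37.3% and 37.1% of all genes were. The count of called members depended on single libraries: without E15.5 control replicate 2 it was 15, of which 13 fell and 2 rose, and 11 members fell under all 20 settings run.

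At E17.5, 43 members fell and 0 rose, against 26.7% fallen and 26.7% risen over all genes (53.4% in either direction). They were 26 large subunit genes (56.5%) and 17 small subunit genes (54.8%), or 55.8% of the members. The fold change was below 0 for 76 of 77, with a median of -0.48 (-0.47 for the large and -0.49 for the small subunit), an interquartile range of -0.67 to -0.36, and -0.023 over all genes. Both knockout libraries were below both controls for 62 members and above them for 0, where 39.7% and 38.4% of all genes were. Without E17.5 control replicate 2 the count was 24, and without E17.5 knockout replicate 1 it was 26; 20 members fell under all 20 settings.

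**Figure D3:**
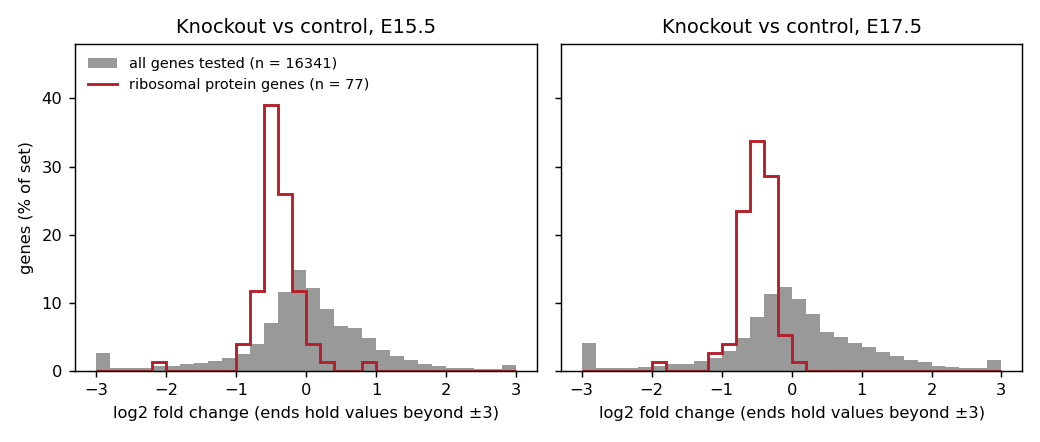
Distribution of the log2 fold change, knockout against control, at E15.5 (left) and E17.5 (right), for the 77 ribosomal protein genes (red line) and all 16341 genes tested (grey), as a percentage of each set per bin of 0.2. The members form a narrow peak below 0, with medians of -0.46 and -0.48, while the distribution of all genes is centred near 0 with broad tails on both sides.

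Members are short, with a median transcript length of 799 bases against 2840 bases over all genes tested, and 54 of 77 are under 1 kb. Among other genes under 1 kb, 1252 were tested, with medians of -0.03 at E15.5 and -0.08 at E17.5, and 17.1% and 21.6% fell. The 54 short members had medians of -0.47 and -0.51, and 35.2% and 57.4% of them fell.

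The same 29 members fell at both stages, 5 fell at E15.5 alone by the threshold (among them Rpl27a and Rpl31), 14 at E17.5 alone, and 29 at neither. The difference between the stage effects passed for 0 members (edgeR), where 4.34% of all genes passed (1.87% upward, 2.47% downward), and 3 members had an unadjusted p below 0.05. The passing at 1 stage alone is therefore not shown to be a difference between stages. The 2 comparisons share no library. Fold changes of the 77 members at E15.5 and E17.5 correlated with a Pearson's r of 0.22 and a Spearman's rho of 0.43, against 0.80 and 0.82 across all genes tested, as a description across genes within the same libraries. The members cover a narrower range, with E15.5 interquartile ranges of -0.55 to -0.24 against -0.38 to 0.49 over all genes. They also include Rpl38, with SEs of 1.04 and 1.03. The lower correlations are therefore not a measure of poorer agreement between stages.

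**Figure D4:**
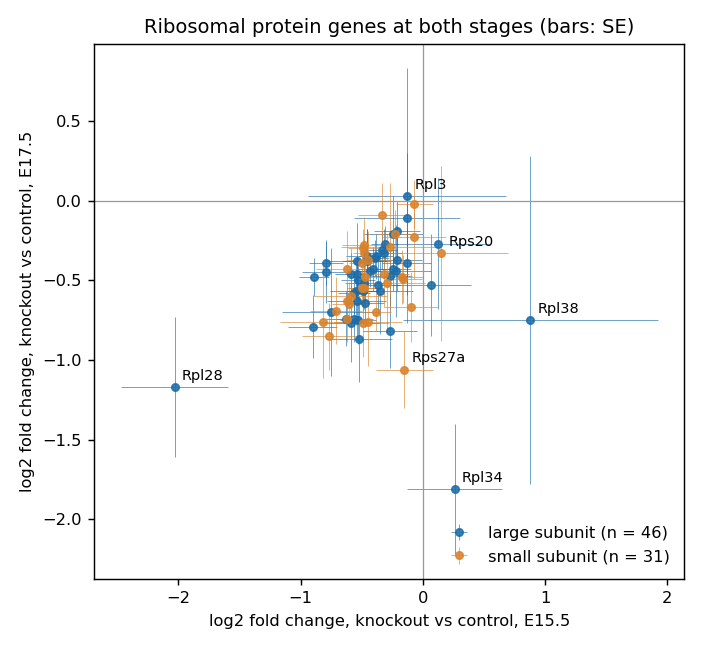
Log2 fold change of each ribosomal protein gene in knockout against control epidermis at E15.5 (horizontal) and E17.5 (vertical), with SE bars, coloured by subunit. Most members lie in 1 cloud below 0 on both axes, and Rpl28, Rpl34 and Rpl38 lie outside it, the last with SEs of 1.04 and 1.03.

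In all, 7 members fell at both stages under every setting run, namely Rpl6, Rpl11, Rpl15, Rpl22, Rpl36, Rps3a1 and Rps19. They were singled out after their values were seen. Rpl36, a large subunit protein, measured 119 and 114 CPM in E15.5 controls and 70.0 and 55.4 CPM in E15.5 knockouts. At E17.5 it measured 95.9 and 85.9 CPM in controls and 62.6 and 67.5 CPM in knockouts. Every knockout library was below every control library of its stage. Rpl36 (chr 17, 56610094 to 56614246, GRCm38) had log2 fold changes of -0.89 ± 0.12 (SE, n = 2 per group; edgeR, adjusted p = 0.00011) and -0.48 ± 0.12 (adjusted p = 0.0054). The smallest adjusted p at E15.5 among members was that of Rpl36. Rps3a1, a small subunit protein near the exit of the mRNA channel, measured 85.8 and 92.4 CPM in E15.5 controls, 63.0 and 53.3 CPM in E15.5 knockouts, 89.9 and 85.9 CPM in E17.5 controls and 55.2 and 58.2 CPM in E17.5 knockouts. It had the smallest adjusted p at E17.5, with log2 fold changes of -0.62 ± 0.11 (adjusted p = 0.00068) and -0.63 ± 0.11 (adjusted p = 0.00042).

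Rpl5 and Rpl11 bind 5S ribosomal RNA, and this particle, when not in a ribosome, binds and inhibits Mdm2, the main ubiquitin ligase of p53. Rpl11 (chr 4, 136049354 to 136053393) measured 9.51 and 13.1 CPM in E15.5 controls, 6.52 and 5.63 CPM in E15.5 knockouts, 10.2 and 10.2 CPM in E17.5 controls and 6.35 and 5.50 CPM in E17.5 knockouts. The groups did not overlap at either stage, and the log2 fold changes were -0.90 ± 0.20 (edgeR, adjusted p = 0.003) and -0.79 ± 0.20 (adjusted p = 0.0054). Rpl5 measured 22.1 and 20.7 CPM in E15.5 controls, 16 and 20.3 CPM in E15.5 knockouts, 21.1 and 24.1 CPM in E17.5 controls and 16.4 and 17.3 CPM in E17.5 knockouts. It fell at E17.5 by -0.43 ± 0.14 (adjusted p = 0.026), a call that ended without E17.5 control replicate 2, knockout replicate 1 or knockout replicate 2 (adjusted p = 0.14, 0.098 and 0.056). At E15.5 the change of -0.24 ± 0.14 did not pass (adjusted p = 0.21). Both genes had 0% unique coding stretches. A list of 12 genes held chaperones of ribosomal proteins, loading factors of the 5S particle and Mdm2. Of these 4 fell at E15.5 and 5 at E17.5, where 22.3% and 26.7% of all genes fell, the 1 that rose at each stage was Mdm2, and the medians were -0.24 and -0.30. The loading factors Rrs1 (-0.57 ± 0.19 at E15.5, adjusted p = 0.027) and Rpf2 (-1.02 ± 0.20 at E17.5, adjusted p = 0.0012) fell. Mdm2, also a p53 target gene, rose by 0.58 ± 0.10 at E15.5 (adjusted p = 0.00065) and 0.27 ± 0.10 at E17.5 (adjusted p = 0.04).

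Rplp0, Rplp1, Rplp2 and Rpl12 form the stalk that recruits elongation factors, and 1 of these 4, Rplp2, fell at each stage, where 22.3% and 26.7% of all genes fell. Rplp2 measured 27.8 and 25.7 CPM in E15.5 controls, 18.7 and 18.2 CPM in E15.5 knockouts, 19.8 and 24.9 CPM in E17.5 controls and 15.1 and 16.5 CPM in E17.5 knockouts. Its log2 fold changes were -0.53 ± 0.14 (edgeR, adjusted p = 0.0079) and -0.50 ± 0.14 (adjusted p = 0.0095). The first call ended without E15.5 control replicate 1 (adjusted p = 0.0544) and the second without E17.5 control replicate 2 (0.087) or knockout replicate 1 (0.056). Rplp0, whose protein anchors the stalk, was lower in both knockout libraries at each stage, at -0.32 ± 0.15 (adjusted p = 0.11) and -0.33 ± 0.15 (adjusted p = 0.088). Rplp1 had -0.21 ± 0.20 (adjusted p = 0.41) and -0.37 ± 0.20 (adjusted p = 0.13). Without 1 library, E15.5 knockout replicate 1 for Rplp0 and 2 for Rplp1, both passed at E15.5 (-0.52, adjusted p = 0.036, and -0.61, 0.014). At E17.5 Rplp0 passed in DESeq2 (-0.32, adjusted p = 0.0484), and with library totals Rplp0, Rplp1 and Rpl12 passed (0.0066, 0.028 and 0.019). Rpl12 had -0.13 ± 0.20 (adjusted p = 0.64) and -0.39 ± 0.20 (adjusted p = 0.12).

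Around the exit of the tunnel through which the growing protein leaves, 3 of 8 members fell at E15.5 (Rpl19, Rpl22 and Rpl31) and 4 at E17.5 (Rpl19, Rpl22, Rpl23a and Rpl39). Over all members 44.2% and 55.8% fell, and over all genes 22.3% and 26.7%. Rpl22, a protein with a role in T cell development in mice, measured 322 and 379 CPM in E15.5 controls, 260 and 216 CPM in E15.5 knockouts, 359 and 360 CPM in E17.5 controls and 229 and 252 CPM in E17.5 knockouts. The groups did not overlap and the log2 fold changes were -0.56 ± 0.13 (edgeR, adjusted p = 0.0036) and -0.58 ± 0.13 (adjusted p = 0.0023). Rpl19 had -0.53 ± 0.15 (adjusted p = 0.013) and -0.75 ± 0.15 (adjusted p = 0.0014), and the first call ended without E15.5 control replicate 2 (-0.27, adjusted p = 0.16) or knockout replicate 1 (adjusted p = 0.062). Rpl31, a protein at the tunnel exit, fell at E15.5 by -0.79 ± 0.20 (adjusted p = 0.0065), a call that failed when E15.5 control replicate 2 was left out (-0.50, 0.085) or knockout replicate 2 (-0.68, 0.0503). Rpl39, which lines the tunnel, fell at E17.5 by -0.87 ± 0.27 (adjusted p = 0.019), lost without E17.5 control replicate 2 (0.082) or knockout replicate 2 (0.097). At E15.5 it was -0.52 ± 0.27 (adjusted p = 0.13), and -1.19 (0.00051) without E15.5 knockout replicate 2. Rpl23a, a docking site of the signal recognition particle, fell at E17.5 by -0.63 ± 0.24 (adjusted p = 0.042), and that call ended under DESeq2 (adjusted p = 0.14), upper-quartile scaling (0.0549), the replicate block (0.0549) and without E17.5 control replicate 1 (0.17), control replicate 2 (0.06) or knockout replicate 1 (0.20). Rpl17, Rpl26 and Rpl35 passed at neither stage, with values from -0.57 to -0.19. Without E15.5 knockout replicate 2, the E15.5 changes were -0.80 for Rpl17 and -0.88 for Rpl35. Without E15.5 knockout replicate 1 they were 0.17 and 0.02. Without E17.5 knockout replicate 1, Rpl35 was at -0.98 at E17.5.

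Along the channel that holds the mRNA in the small subunit, 3 of 6 members fell at E15.5 (Rps3, Rps26 and Rps3a1) and 4 at E17.5 (those 3 and Rps14). The shares that fell were 44.2% and 55.8% over all members, and 22.3% and 26.7% over all genes. Rps3, at the channel's entry, measured 863 and 985 CPM in E15.5 controls, 710 and 715 CPM in E15.5 knockouts, 1000 and 1004 CPM in E17.5 controls and 574 and 663 CPM in E17.5 knockouts. Its groups did not overlap at either stage. The log2 fold changes were -0.38 ± 0.12 (edgeR, adjusted p = 0.027) and -0.70 ± 0.12 (adjusted p = 0.00058). The E15.5 call was lost under upper-quartile scaling (-0.28, adjusted p = 0.083) and without E15.5 control replicate 2 (-0.28, 0.17), knockout replicate 1 (0.094) or knockout replicate 2 (0.086). Rps26, near the channel's exit, had -0.48 ± 0.12 (adjusted p = 0.0077) and -0.55 ± 0.12 (adjusted p = 0.0029), and the first call ended without E15.5 control replicate 2 (0.079) or knockout replicate 2 (0.056). Rps14, near the platform, fell at E17.5 by -0.48 ± 0.17 (adjusted p = 0.032), a call lost under upper-quartile scaling (0.0502) and without E17.5 control replicate 2 (-0.18, 0.36), knockout replicate 1 (0.095) or knockout replicate 2 (0.079). Rps2 and Rps28 passed at neither stage. Rps2 had -0.23 ± 0.15 and -0.21 ± 0.15. Its E17.5 value was -0.45 without E17.5 control replicate 1 and 0.07 without E17.5 control replicate 2. Rps28 had -0.07 ± 0.26 and -0.23 ± 0.26.

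The members Rps19, Rps20, Rpl24, Rpl27a and Rpl38 are known from mouse mutants with altered coat pigment or skeleton. Of these 5, 2 fell at E15.5 and 1 at E17.5, where 22.3% and 26.7% of all genes fell. Among all members 44.2% and 55.8% fell. Rps19, a gene mutated in the human anemia named Diamond-Blackfan, measured 158 and 183 CPM in E15.5 controls, 116 and 125 CPM in E15.5 knockouts, 148 and 153 CPM in E17.5 controls and 115 and 115 CPM in E17.5 knockouts. The groups did not overlap, and the log2 fold changes were -0.50 ± 0.10 (edgeR, adjusted p = 0.0017) and -0.39 ± 0.10 (adjusted p = 0.0066). Rpl27a fell at E15.5 by -0.38 ± 0.14 (adjusted p = 0.042). This call ended under library totals, upper-quartile scaling and DESeq2 (adjusted p = 0.062, 0.12 and 0.0516) and without E15.5 control replicate 1, control replicate 2, knockout replicate 1 or knockout replicate 2 (0.21, 0.056, 0.16 and 0.086). Its E17.5 value of -0.35 ± 0.14 stood at an adjusted p of 0.0501. Rpl24 was low in every library, from 1.72 to 4.34 CPM, and gave -0.13 ± 0.43 (adjusted p = 0.83) and -0.11 ± 0.41 (adjusted p = 0.84). Rps20 and Rpl38 had replicates too far apart for either comparison, as given next.

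For some members the replicates were far apart. In 13 members (16.9%) the replicates of at least 1 group differed 2-fold or more, against 13.0% of all genes tested and 3.49% of the 13853 genes at or above the lowest member level; the difference was not tested. These are Rpl3, Rpl18, Rpl21, Rpl24, Rpl28, Rpl34, Rpl36a, Rpl38, Rpl39, Rps16, Rps18, Rps20 and Rps29, chosen after their values were seen. Rpl38 (chr 11, 114667818 to 114672333), known in mice for its role in patterning the axial skeleton, measured 4.15 and 64.5 CPM in E15.5 controls, 83.0 and 42.8 CPM in E15.5 knockouts, 67.9 and 81.6 CPM in E17.5 controls and 4.71 and 84.3 CPM in E17.5 knockouts. It was between 4.15 and 4.71 CPM in E15.5 control replicate 1 and E17.5 knockout replicate 1, and between 42.8 and 84.3 CPM in the other 6 libraries. Rpl38 has 3 transcript rows, and these levels are of the row with the largest total only. Its log2 fold changes were 0.88 ± 1.04 (edgeR, adjusted p = 0.52) and -0.75 ± 1.03 (adjusted p = 0.56). They turned to 3.92 (adjusted p = 0.045) without E15.5 control replicate 2, to -0.04 without E15.5 control replicate 1, to -4.01 (adjusted p = 0.016) without E17.5 knockout replicate 2 and to 0.15 without E17.5 knockout replicate 1. Rpl3 (chr 15, 80077781 to 80083406), a protein of the peptidyl transferase region, measured 108 and 11.2 CPM in E15.5 controls, 93.1 and 15.8 CPM in E15.5 knockouts, 78.9 and 71.3 CPM in E17.5 controls and 68.7 and 84.9 CPM in E17.5 knockouts. Both second replicates at E15.5 were thus low, whatever the genotype, and the other 6 libraries lay from 68.7 to 108 CPM. Its log2 fold changes were -0.13 ± 0.81 (adjusted p = 0.91) and 0.03 ± 0.80 (adjusted p = 0.98), and without E15.5 control replicate 1 the first became 2.28 (adjusted p = 0.0461). Rps20 (chr 4, 3831584 to 3835655) measured 416 and 383 CPM in E15.5 controls, 155 and 729 CPM in E15.5 knockouts, 300 and 639 CPM in E17.5 controls and 491 and 254 CPM in E17.5 knockouts. Its groups overlapped at both stages, with log2 fold changes of 0.15 ± 0.55 (adjusted p = 0.85) and -0.33 ± 0.55 (adjusted p = 0.63), and without E15.5 knockout replicate 2 the first was -1.36 (adjusted p = 0.029). The share of unique coding stretches was 0% for Rpl38, 4.3% for Rpl3 and 15.1% for Rps20.

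Rpl34 (chr 3, 130726827 to 130730398), a large subunit protein, had the lowest fold change at E17.5 and 1 of the highest at E15.5. It measured 4.42 and 15.6 CPM in E15.5 controls, 12 and 11.9 CPM in E15.5 knockouts, 14.5 and 17.7 CPM in E17.5 controls and 4.56 and 4.6 CPM in E17.5 knockouts. E15.5 control replicate 1 had the level of the E17.5 knockouts, and the other 5 libraries lay from 11.9 to 17.7 CPM. Rpl34 has 2 transcript rows, and these levels are of the row with the larger total only. The log2 fold change was 0.26 ± 0.39 at E15.5 (edgeR, adjusted p = 0.63) and -1.81 ± 0.41 at E17.5 (adjusted p = 0.0032), and the difference between them was -2.07 ± 0.57 (adjusted p = 0.07). The E15.5 value was 1.43 (adjusted p = 0.0008) without E15.5 control replicate 2 and -0.38 (adjusted p = 0.14) without E15.5 control replicate 1, and the difference passed without either of them (-3.24, adjusted p = 0.00062, and -1.43, adjusted p = 0.018). Rpl28 (chr 7, 4792965 to 4794547), a mammalian large subunit protein, had the lowest fold change at E15.5. It measured 28.8 and 67.9 CPM in E15.5 controls, 15 and 8.69 CPM in E15.5 knockouts, 14.9 and 36.8 CPM in E17.5 controls and 11 and 12 CPM in E17.5 knockouts. The groups did not overlap at either stage, and the controls were spread over more than 2-fold. The log2 fold changes were -2.03 ± 0.44 (adjusted p = 0.0029), a call kept under all settings, and -1.17 ± 0.44 (adjusted p = 0.041). The second was -0.37 (adjusted p = 0.51) without E17.5 control replicate 2, and it also failed without knockout replicate 1 (0.13) or knockout replicate 2 (0.091), under DESeq2 (0.13) and under limma-voom (0.097).

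**Figure D5:**
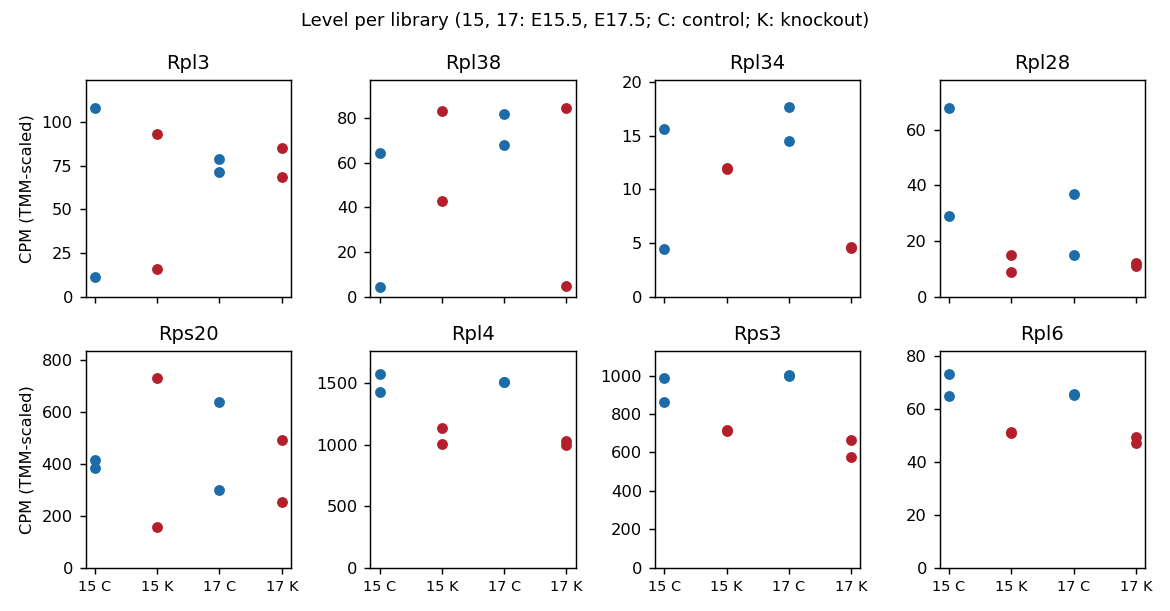
TMM-scaled CPM per library (blue, control; red, knockout; 15 and 17, E15.5 and E17.5; C, control; K, knockout) for 5 members with replicates 2-fold or more apart (Rpl3, Rpl38, Rpl34, Rpl28 and Rps20) and 3 with close replicates (Rpl4, Rps3 and Rpl6). Rpl4, Rps3 and Rpl6, picked with their values in view, show all knockout points below the controls of their stage. Close replicates did not always go with a fall, since the groups of Rps21 (not shown, replicates at most 1.31-fold apart) overlapped at both stages. Rpl38 drops to 4.15 and 4.71 CPM in 1 control and 1 knockout library.

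Of the other members at the ends of the range, Rps13 had -0.82 ± 0.35 at E15.5 (edgeR, adjusted p = 0.075) at 1.22 to 3.47 CPM, and -1.33 (0.027) without E15.5 knockout replicate 2. Rpl36a, the least abundant member, had 0.12 ± 0.43 at E15.5 (adjusted p = 0.84). Rps21 was among the highest at E17.5, at -0.02 ± 0.15 (adjusted p = 0.92). The most abundant member, Rpl4, picked with its values in view, measured 1433 and 1575 CPM in E15.5 controls, 1010 and 1134 CPM in E15.5 knockouts, 1508 and 1511 CPM in E17.5 controls and 1000 and 1034 CPM in E17.5 knockouts. The groups did not overlap at either stage. Its log2 fold changes were -0.49 ± 0.12 (adjusted p = 0.0066) and -0.57 ± 0.12 (adjusted p = 0.0021), and the first just failed without E15.5 control replicate 2 (0.0519) or knockout replicate 1 (0.055).

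Some ribosomal proteins are made fused to ubiquitin or a ubiquitin-like domain: among them Rps27a and, outside the symbol rule, Fau of the small subunit. Rps27a measured 3.96 and 4.88 CPM in E15.5 controls, 3.37 and 4.61 CPM in E15.5 knockouts, 5.83 and 5.59 CPM in E17.5 controls and 2.70 and 2.77 CPM in E17.5 knockouts. The groups overlapped at E15.5 (-0.15 ± 0.23; edgeR, adjusted p = 0.64) and were apart at E17.5 (-1.06 ± 0.24, adjusted p = 0.0028). Fau fell at E15.5 (-0.94 ± 0.22, adjusted p = 0.0047), with -0.50 ± 0.22 at E17.5 (adjusted p = 0.075).

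Of 11 ribosomal proteins and paralogs outside the symbol rule, 10 were tested, Rpl10l having too few counts. Of the 10, 3 fell at E15.5 and 5 at E17.5, and 0 rose. Over all genes 22.3% and 26.7% fell, and 23.2% and 26.7% rose. Rpl22l1, the paralog of Rpl22, measured 15 and 15.2 CPM in E15.5 controls, 9.74 and 9.89 CPM in E15.5 knockouts, 18.2 and 17.8 CPM in E17.5 controls and 9.20 and 9.49 CPM in E17.5 knockouts. It fell at both stages, by -0.63 ± 0.13 (edgeR, adjusted p = 0.0024) and -0.94 ± 0.13 (adjusted p = 0.0001). Rpl36al fell by -0.44 ± 0.11 (adjusted p = 0.0083) and -0.50 ± 0.11 (adjusted p = 0.0031). Rps27l, a p53 target gene in human cells, fell at E17.5 (-0.46 ± 0.10, adjusted p = 0.0024), with -0.13 ± 0.10 at E15.5 (adjusted p = 0.34). Rpl7l1 fell at E17.5 (-0.33 ± 0.10, adjusted p = 0.017). Rack1, a scaffold protein on the small subunit with 98.6% unique coding stretches, gave -0.29 ± 0.13 (adjusted p = 0.077) and -0.27 ± 0.13 (adjusted p = 0.09). Rps27rt, at 0.876 to 2.57 CPM, passed at neither stage, with -0.81 ± 0.36 and -0.83 ± 0.37. Rpl39l and Rpl3l did not pass in either knockout comparison, and both rose from E15.5 to E17.5 in controls, by 0.68 ± 0.17 (adjusted p = 0.028) and 1.48 ± 0.34 (adjusted p = 0.018).

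A list of 17 other genes known for TOP mRNAs held translation factors together with Npm1, Tpt1, Nap1l1, Hnrnpa1, Naca and Btf3, which are not translation factors. Of the 17, 10 fell and 1 rose at E15.5, and 12 fell and 1 rose at E17.5, where 22.3% and 26.7% of all genes fell, and the medians were -0.34 and -0.40. The elongation factor subunit Eef1d fell by -0.46 ± 0.09 at E15.5 (edgeR, adjusted p = 0.002) and the initiation factor subunit Eif3e by -0.64 ± 0.10 at E17.5 (adjusted p = 0.00023). Hnrnpa1, an RNA-binding protein, fell by -0.70 ± 0.12 at E17.5 (adjusted p = 0.00047). Naca, which binds nascent chains at the tunnel exit together with Btf3, rose by 0.57 ± 0.16 at E15.5 (adjusted p = 0.013) and 1.04 ± 0.16 at E17.5 (adjusted p = 0.00024). Its partner Btf3 fell, by -0.70 ± 0.18 (adjusted p = 0.0075) and -0.66 ± 0.18 (adjusted p = 0.0084).

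Among 15 genes of the mTOR pathway or transcription factors linked to ribosomal protein genes, 1 rose and 3 fell at E15.5, and 2 rose and 4 fell at E17.5. The share called was thus below that of all genes (45.5% and 53.4%). Mycn, a transcription factor that drives growth genes, measured 23.6 and 17.8 CPM in E15.5 controls, 4.55 and 5.35 CPM in E15.5 knockouts, 35.7 and 36.7 CPM in E17.5 controls and 3.32 and 3.99 CPM in E17.5 knockouts. It fell by -2.06 ± 0.17 (edgeR, adjusted p = 3.4e-06) and -3.31 ± 0.18 (adjusted p = 6.4e-08), and the difference between stages passed (-1.24 ± 0.25, adjusted p = 0.016). The kinase gene Rps6kb2 fell by -1.22 ± 0.10 (adjusted p = 3.1e-06) and -0.70 ± 0.10 (adjusted p = 0.00014). Eif4ebp1, an inhibitor of cap-dependent translation, rose by 0.68 ± 0.10 (adjusted p = 0.0003) and 0.58 ± 0.10 (adjusted p = 0.00065).

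Between E15.5 and E17.5 the members hardly moved within a genotype under TMM scaling. As a share of all gene counts, they were higher in both E17.5 controls (1.803% and 2.004%) than in E15.5 controls (1.521% and 1.738%). The knockout shares overlapped (1.219% and 1.229% at E15.5, 1.118% and 1.266% at E17.5). With library totals, control medians were 0.20 for the large and 0.18 for the small subunit. With TMM scaling the member median in control epidermis was 0.0, and 5 members had an unadjusted p below 0.05. Of the 77, 1 passed, against 10.9% of all genes (3.18% risen, 7.71% fallen). This was Rpl37a (chr 1, 72711260 to 72713813), which measured 101 and 81.2 CPM in E15.5 controls and 63.4 and 56.6 CPM in E17.5 controls, without overlap, and fell by -0.60 ± 0.14 (edgeR, adjusted p = 0.016). That call ended with library totals (-0.41, adjusted p = 0.056) and without E15.5 control replicate 1 (-0.44, 0.14) or E17.5 control replicate 2 (-0.52, 0.15). In knockout epidermis 0 of 77 passed in edgeR, against 13.1% of all genes (6.2% risen, 6.92% fallen), with a median of -0.05, 4 members at an unadjusted p below 0.05 and 1 call in DESeq2 (Rpl39, -0.75, adjusted p = 0.028). Rpl34 stood just above the threshold (-1.38, adjusted p = 0.0501). It passed with library totals (0.033), no filter (0.015), the replicate block (0.034) and the compared groups only (0.00088), and without E15.5 control replicate 1 (0.00039) or 2 (0.00049). Without E15.5 knockout replicate 1 there were 6 calls, all lower at E17.5 (Rpl10, Rpl10a, Rpl13, Rpl18, Rpl39 and Rplp1, from -1.21 to -0.51).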

How the data were processed

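RNA of embryonic epidermis was measured in 8 libraries. Per the series design text, the authors aligned reads to mm10 with TopHat version 2, counted them with HOMER and called genes with edgeR. The deposited values are raw counts per RefSeq transcript. Not given in the sources used here are the HOMER version, its strand setting and its treatment of reads that match several places. Of 30521 transcript rows, 29144 were named through the RefSeq table of GRCm38.p6 and 177 through GENCODE M21. The other 1200, of which 781 are marked as further copies of a transcript (0 of them of a member), held 3.14% of counts (1.8% to 2.34% in controls, 3.73% to 4.64% in knockouts) and were left out. A gene with several rows was represented by the row with the largest total. The chosen row of Rps27 is a non-coding accession. The 8 count columns in joint tables of a stage were not used.

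edgeR 4.0.16 in R 4.3.3 was fitted (quasi-likelihood, a mean for each group) to all 8 libraries after filterByExpr and TMM scaling (factors 0.9384 to 1.121). The Benjamini-Hochberg adjustment covers 16341 genes, with a threshold of 0.05. SE is the absolute log2 fold change over the square root of F. The scripts were tested on simulated counts. Alternatives included DESeq2 1.42.0 and limma-voom (limma 3.58.1). The labels number the replicates without saying whether they are separate embryos, so p-values reflect only how far these libraries differ, and that may be technical. Sequences and motifs were read from RefSeq windows, and uniqueness from GENCODE M21 transcripts with stretches of 50 bases.

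Members, lists and tests were chosen with earlier results of these data known. Named are the 4 lowest and 4 highest members of each knockout comparison, up to 3 called members per direction in the other comparisons, all members of the role groups, all listed paralogs and up to 3 called genes per other list and knockout comparison. Any gene picked with its values in view is marked in the text. Results of a few genes that meet this rule are not reported here.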

Additional observations from a re-analysis of the deposited data

How the results depend on the processing

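Each result was recomputed with 4 other scalings, 2 other filters, DESeq2, limma-voom, summed transcripts, the compared groups only, a replicate block and without each library. The count of called members at E15.5 was 26 to 37 over the settings that kept all libraries, and 15 to 35 when 1 library was left out. At E17.5 it was 37 to 63 and 24 to 54. No member rose at either stage except Rpl34 (1.43) and Rpl38 (3.92) without E15.5 control replicate 2 and Rpl3 (2.28) without E15.5 control replicate 1. Library totals shifted the E17.5 median of all genes from -0.02 to -0.23, and the member medians to -0.68 (large) and -0.70 (small), which remain below it. Under the other settings the member medians were -0.58 to -0.35 at E15.5 and -0.60 to -0.39 at E17.5. The labels do not say whether equal replicate numbers pair libraries. Correlations of replicate deviations between groups were -0.0707 to 0.0431 over all genes and -0.491 to 0.627 over the members, which does not settle it. The replicate block gave 34 calls at E15.5 and 44 at E17.5. The difference between stages gave 1 call (Rpl34) with library totals, no filter, limma-voom and the block, and 0 to 1 without a library. The control stage comparison gave 2 with DESeq2 (Rpl37a fell, Rps9 rose), 1 with library totals (Rps9 rose) and 0 to 2 without a library. The knockout stage comparison gave 1 with library totals, 2 without a filter, 1 with DESeq2, 1 with the block, 1 with the compared groups only and 0 to 6 without a library. The cause of these changes was not tested.

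Signs turned, at an adjusted p above 0.05, for Rpl3 at E17.5 with library totals (-0.18), Rps28 at E15.5 (0.03) and Rps21 at E17.5 (0.02) with upper-quartile scaling, and Rps20 at E15.5 with limma-voom (-0.25) and the replicate block (-0.05). Leaving out 1 library at a time gave both signs at E15.5 for Rpl12 (-0.34 to 0.06), Rpl17 (-0.80 to 0.17), Rpl24 (-0.71 to 0.29), Rpl26 (-0.51 to 0.03), Rpl34 (-0.38 to 1.43), Rpl35 (-0.88 to 0.02), Rpl36a (-0.34 to 0.72), Rpl38 (-0.04 to 3.92), Rplp1 (-0.61 to 0.10), Rps20 (-1.36 to 0.86), Rps27a (-0.39 to 0.06), Rps28 (-0.53 to 0.27). Past the threshold there were Rps20 at its lowest (adjusted p = 0.029), Rpl34 and Rpl38 at their highest, Rpl3 (-0.13 with all libraries, 2.28, adjusted p = 0.0461, without control replicate 1), and Rpl17, Rpl35 and Rplp1 at their lowest. At E17.5 it did so for Rpl24 (-0.54 to 0.40), Rpl26 (-0.42 to 0.09), Rpl3 (-0.15 to 0.16), Rpl38 (-4.01 to 0.15), Rps2 (-0.45 to 0.07), Rps20 (-0.90 to 0.31), Rps21 (-0.25 to 0.14), of which Rpl38 and Rps2 passed at their lowest. The lowest members stood at a few CPM, and why they were low was not tested.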
